A study of Mus musculus with 359 samples.

Results

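The genes described here are 10 rows of the lung count tables that encode proteins of skeletal muscle: Actn3, Atp2a1, Mylpf, Tnni2, Tnnt3, Myh4, Ckm, Acta1, Pvalb and Mybpc2. They are 10 of the 24421 gene symbols in each table. They were chosen by their own counts in these lung libraries, where a few libraries stood far above the rest, so their levels, folds and calls are given as a description and support nothing further. The lungs came from B6C3F1 mice of both sexes exposed to 4-methylimidazole (4-MEI), a small ring compound that forms during the browning of caramel colours. Mice were dosed by gavage up to day 2 with vehicle or with 50, 100, 200 or 300 mg/kg-d, or through the feed up to day 5 or day 28 with 0, 150, 300, 1250 or 2500 ppm. Each day, sex and dose held 6 lung libraries, except 5 for the females fed 2500 ppm up to day 5, which gave 179 lung libraries in 30 groups. Nothing in the labels says outright that the libraries of a group came from separate animals, so p-values measure the spread between libraries, which may be technical.

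The sarcomere, the contractile unit of striated muscle, slides actin filaments past myosin filaments when calcium binds the troponin complex. Fast fibres, slow fibres and heart muscle use different copies of many of these proteins, which makes the copies markers of fibre type. Lung tissue itself holds no skeletal muscle, while in rodents heart muscle cells sheathe the larger pulmonary veins. The diaphragm, the chest wall and, in mice, the wall of the oesophagus hold skeletal muscle that lies next to the lung and airways.

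By role, Acta1 encodes the actin of the thin filament in skeletal muscle, and Actn3 the alpha-actinin that anchors it in fast fibres. Myh4 encodes the myosin heavy chain of the fastest (IIB) fibres, Mylpf the regulatory light chain of fast myosin, and Mybpc2 the fast form of myosin-binding protein C. Tnni2 and Tnnt3 encode the fast forms of troponin I and troponin T. Atp2a1 encodes the calcium pump SERCA1 of the sarcoplasmic reticulum, Pvalb the calcium buffer parvalbumin, and Ckm the creatine kinase of skeletal and heart muscle. In the annotation GENCODE M21 on GRCm38 (mm10), 6 of the 10 genes lie on chromosome 7: Ckm at chr7:19404776-19422841, Mybpc2 at chr7:44501699-44524656, Atp2a1 at chr7:126445858-126463108, Mylpf at chr7:127208890-127214298, Tnni2 at chr7:142441808-142444410 and Tnnt3 at chr7:142498836-142516009. The others are Actn3 at chr19:4861216-4877909, Myh4 at chr11:67238029-67260446, Acta1 at chr8:123891769-123894751 and Pvalb at chr15:78191114-78206400.

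RefSeq promoter windows (GRCm38.p6, 250 bases before to 50 after a start) were found for 7 of the 10 genes, in 8 windows. The 4 windows shown belong to the gene with the highest level per length in each muscle-rich library (Acta1), to both genes that differed most between those libraries (Myh4 and Pvalb), and to the gene that moved most closely with a heart gene (Ckm). They are read in the direction of the gene. Capitals mark E-boxes (CANNTG, the sites of myogenic factors such as MyoD), TATAAA, and matches to the MEF2 and CArG motifs, searched on both strands.
Acta1, chr8:123894726-123895025, minus strand: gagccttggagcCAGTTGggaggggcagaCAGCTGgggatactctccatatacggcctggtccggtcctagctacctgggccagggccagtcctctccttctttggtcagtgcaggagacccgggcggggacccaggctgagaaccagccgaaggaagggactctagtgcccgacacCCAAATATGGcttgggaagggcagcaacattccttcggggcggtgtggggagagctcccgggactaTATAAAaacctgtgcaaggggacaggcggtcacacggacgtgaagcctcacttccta
Myh4, chr11:67237562-67237861, plus strand: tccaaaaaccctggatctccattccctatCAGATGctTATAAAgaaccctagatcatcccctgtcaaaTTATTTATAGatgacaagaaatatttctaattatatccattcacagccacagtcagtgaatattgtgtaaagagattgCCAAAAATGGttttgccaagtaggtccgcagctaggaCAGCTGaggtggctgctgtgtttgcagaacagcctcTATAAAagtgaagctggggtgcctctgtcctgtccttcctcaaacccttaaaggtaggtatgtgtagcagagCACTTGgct
Pvalb, chr15:78206351-78206650, minus strand: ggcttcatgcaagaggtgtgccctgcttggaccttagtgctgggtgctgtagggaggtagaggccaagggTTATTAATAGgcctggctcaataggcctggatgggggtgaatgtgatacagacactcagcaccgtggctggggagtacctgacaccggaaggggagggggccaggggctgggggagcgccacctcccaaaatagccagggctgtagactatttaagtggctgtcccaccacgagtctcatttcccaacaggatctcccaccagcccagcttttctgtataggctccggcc
Ckm, chr7:19410844-19411143, plus strand: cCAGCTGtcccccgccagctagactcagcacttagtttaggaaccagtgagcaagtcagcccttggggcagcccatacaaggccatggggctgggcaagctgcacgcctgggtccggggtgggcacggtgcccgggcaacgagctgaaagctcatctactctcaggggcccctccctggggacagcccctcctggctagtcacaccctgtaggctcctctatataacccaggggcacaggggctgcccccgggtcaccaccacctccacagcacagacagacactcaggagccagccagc
The Myh4 window held 3 E-boxes, 3 TATAAA matches of which 1 overlaps the MEF2 match on the other strand, 1 MEF2 match and 1 CArG match. The Acta1 window held 2 E-boxes, 1 TATAAA and 1 CArG match, the Pvalb window shown 1 MEF2 match, and the Ckm window 1 E-box. Pvalb has another window, chr15:78204188-78204487, which is not shown and held 2 E-boxes and 0 MEF2 matches. Of the 8 windows, 7 held an E-box, 2 a TATAAA, 2 a MEF2 match and 2 a CArG match. Of all 32851 windows in the RefSeq table, 72.3% held an E-box, 13.6% a TATAAA, 3.19% a MEF2 match and 1.63% a CArG match. A match is a description of the letters and no measured binding site.

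The depth of the lung libraries ran from 7253910 to 20232366 counts (day 2), from 8081043 to 21473135 (day 5) and from 11692340 to 18207432 (day 28). Levels are given as CPM, counts relative to the depth of the library, scaled with TMM factors, which correct for libraries in which a few genes take a large share of the counts. At day 28 the titles and the characteristics disagreed on the dose of 48 lung libraries and on the sex of 24 of these. Groups follow the titles, whose sex matched the Y-linked genes in 179 of 179 libraries. Replicate 176, on which the day 28 results turn, is titled a female vehicle library, while its characteristics give a male and 150 ppm. Surfactant and other lung genes, a list of 9, summed to 58078 to 71564 CPM in the 4 libraries described next, inside the range of the other lung libraries of their tables.

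In most lung libraries the 10 genes were low. Their summed level had a median of 57.6 CPM over the 60 libraries of day 2, 42.3 CPM over the 59 of day 5 and 42.2 CPM over the 60 of day 28. One male library at 300 ppm (the day 5 male library) stood at 2090 CPM, 49.3 times the median of its table. Replicate 90, a female vehicle library (the day 5 female library), stood at 1716 CPM, or 40.5 times, and replicate 176, a female vehicle library (the day 28 library), at 1519 CPM, or 36.01 times. These 3 passed the threshold of 10 times the median and are called muscle-rich here. Replicate 75, a female library at 300 mg/kg-d (the day 2 library), lay below it at 327 CPM, or 5.68 times. The next highest was a male vehicle library of day 28 at 104.1 CPM, or 2.47 times. The other libraries ran from 26.8 to 99.5 CPM at day 2, 23.6 to 80.4 CPM at day 5 and 24.2 to 104.1 CPM at day 28. Of the 3 muscle-rich libraries, 1 came from a 4-MEI group and 2 from vehicle groups. In bulk tissue, fewer cells of a type and less RNA per cell cannot be told apart.

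**Figure D1:**
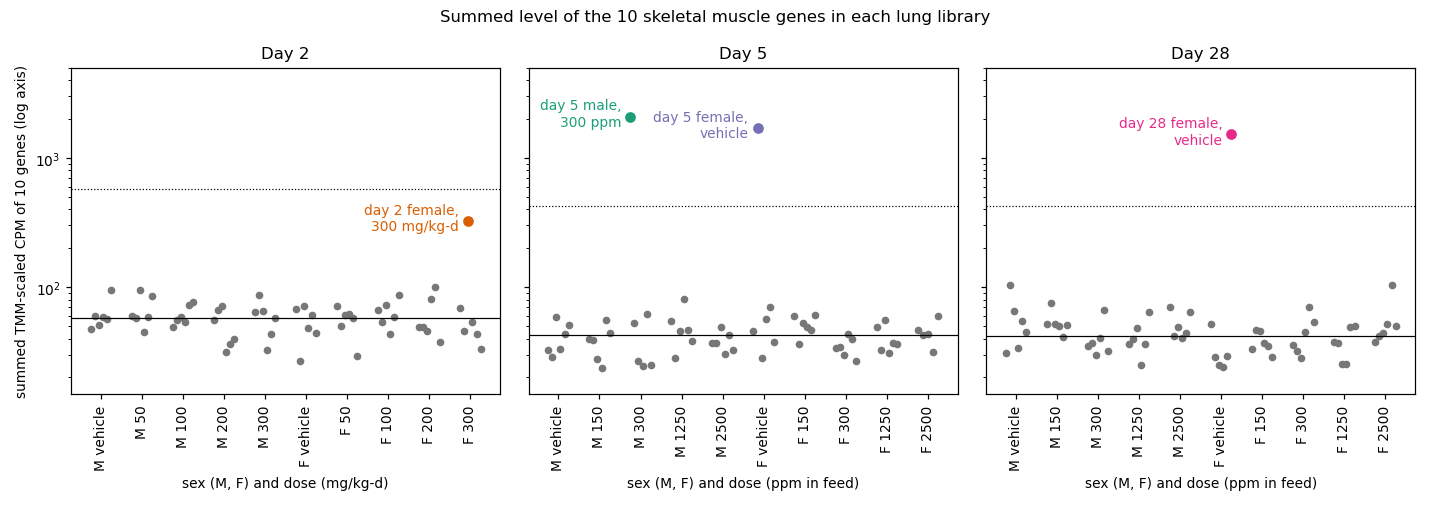
Summed TMM-scaled CPM of the 10 genes (log axis) in each of the 179 lung libraries, 1 point each, by sex (M, F) and dose. The solid line is the median of the table and the dotted line 10 times it. The 4 coloured libraries are named; 3 of them lie above the dotted line and the day 2 library lies between the lines at 327 CPM, while the other libraries stay at or under 104.1 CPM.

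The muscle-rich libraries did not hold the 10 genes in the same proportions. Per kilobase of exon, Acta1 ranked first in each, at 656 CPM per kb in the day 5 male library, 441 in the day 5 female library, 249 in the day 28 library and 58.8 in the day 2 library, against medians of 12.8, 9.43 and 9.68 CPM per kb in the other libraries of days 2, 5 and 28. Tnnt3, the fast troponin T, ranked second in all 4 libraries, at 168, 137.1, 107.5 and 21.6 CPM per kb in the same order. Acta1 took 48.2% of the summed CPM of the 10 genes in the day 5 male library, 39.5% in the day 5 female library, 25.2% in the day 28 library and 27.6% in the day 2 library.

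Myh4 and Pvalb, both markers of the fastest fibres, differed most. Myh4 stood at 232 CPM in the day 28 library (3268 counts), 105.1 CPM in the day 5 female library, 12.4 CPM in the day 5 male library and 1.62 CPM in the day 2 library (25 counts), against at most 1.47 CPM in any other lung library. It made up 15.3% of the summed CPM in the day 28 library and 0.595% in the day 5 male library. Pvalb stood at 92.7 CPM in the day 28 library, 34.7 CPM in the day 5 female library, 9.78 CPM in the day 2 library and 3.87 CPM in the day 5 male library. In the other libraries Pvalb was at 0 in 50 of 59 at day 2, 38 of 57 at day 5 and 40 of 59 at day 28, and at most at 0.297 CPM. The library with the highest summed level, the day 5 male library, thus had the lowest Pvalb of the 4.

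The remaining 6 genes stood above every other library in all 4. Tnni2, the fast troponin I, stood at 131.5 CPM in the day 5 male library, 102.6 CPM in the day 5 female library, 70.1 CPM in the day 28 library and 18.7 CPM in the day 2 library, against at most 4.51 CPM elsewhere. Mylpf, the fast myosin light chain, stood at 123.04, 100.996, 79.5 and 19.2 CPM in the same order, against at most 2.92 CPM elsewhere. Atp2a1, the calcium pump, stood at 195, 210, 262 and 71.7 CPM, against at most 23.5 CPM. Ckm, the creatine kinase, stood at 233, 188, 117.8 and 62.6 CPM. Its gap to the rest was narrow at day 2, where the day 2 library held 1.36 times the next highest library, at 46.1 CPM. Only Myh4 in the same library lay closer, at 1.10 times. Actn3 stood at 66.3, 36.4, 73.5 and 9.13 CPM in the same order, against at most 5.55 CPM elsewhere. Mybpc2 stood at 51.4, 43.8, 38.1 and 9.97 CPM, against at most 6.22 CPM. All 10 genes were higher in each of the 4 libraries than in every other lung library of the same day, which the choice of the genes largely fixes.

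**Figure D2:**
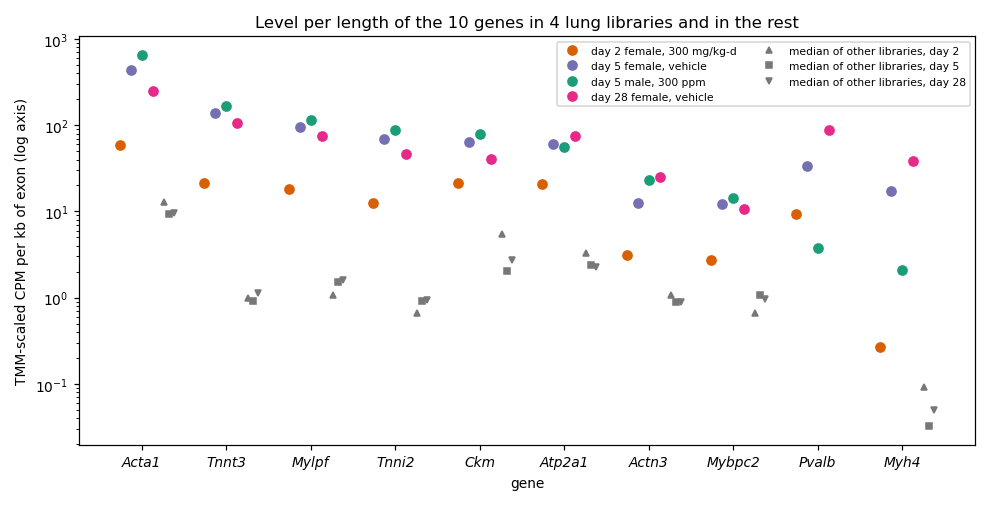
TMM-scaled CPM per kilobase of exon (log axis) of each gene in the 4 libraries (coloured), and the median of the other libraries of each day (grey; Pvalb medians of 0 are not drawn). Acta1 is highest in each coloured library, and Myh4 and Pvalb are spread most widely between them.

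Marker lists other than the 10 genes were read in the same libraries. Of 20 further fast fibre and skeletal muscle genes, 20 were higher in the day 5 male library than in every other library of its table apart from the ones described here, as were 20 in the day 5 female library, 18 in the day 28 library and 13 in the day 2 library. Myh1, the myosin heavy chain of IIX fibres, stood at 272, 180, 110 and 61.7 CPM in that order, against at most 1.37 CPM elsewhere. Tnnc2, the fast troponin C, stood at 177, 132.5, 82.9 and 17.7 CPM, against at most 0.911 CPM. Myh8, the myosin heavy chain of newborn muscle, was on no list and was chosen after its values were seen. It stood at 369 CPM in the day 5 male library, 103.2 CPM in the day 5 female library and 16.3 CPM in the day 2 library.

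Slow fibre genes were mixed. Mybpc1, the slow myosin-binding protein C, stood at 61.9 CPM in the day 5 male library, 45.6 in the day 5 female library, 25.3 in the day 28 library and 4.08 in the day 2 library, against at most 2.60 CPM elsewhere. Myh7, the slow myosin heavy chain, which is also a heart gene, stood at 43.1, 52.1, 35.5 and 75.1 CPM, inside the range of the other libraries of each day. Of 7 slow fibre genes, 3, 5, 1 and 1 exceeded all other libraries in the same order. Of 9 genes of muscle regeneration and the nerve-muscle junction, 7 did so in the day 5 male library, 6 in the day 5 female library, 3 in the day 28 library and 1 in the day 2 library. Myog, which drives the fusion of muscle cells, reached 1.40 CPM in the day 5 male library (21 counts) and 0.616 CPM in the day 5 female library, against 0.0711 CPM in the day 28 library (1 count).

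The summed level of heart muscle genes lay inside the range of the other libraries in all 4. The 13 heart genes summed to 649 CPM in the day 5 male library, 738 CPM in the day 5 female library, 375 CPM in the day 28 library and 913 CPM in the day 2 library. The other libraries spanned 68.03 to 1938 CPM at day 5, 47.9 to 1832 CPM at day 28 and 71.3 to 1865 CPM at day 2. Of the 13 genes, 1 in the day 5 male library and 0 in the other 3 exceeded all other libraries. Of 17 sarcomere and metabolism genes that skeletal and heart muscle share, 11 did so in the day 5 male library, 11 in the day 5 female library, 1 in the day 28 library and 0 in the day 2 library.

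Both muscle-rich day 5 libraries also carried genes of squamous epithelium, the layered lining of the mouth and oesophagus. The 7 genes of that list summed to 4342 CPM in the day 5 male library and 2482 CPM in the day 5 female library, against 0.505 to 18.8 CPM in the other day 5 libraries, and all 7 exceeded every other library in both. Krt4 stood at 2024 and 1156 CPM and Krt13 at 1908 and 1104 CPM in the male and the female library. Both genes encode keratins of the oesophageal and oral lining. Sprr3, a protein of the envelope of those cells, stood at 257 and 126.3 CPM, against at most 0.0652 CPM elsewhere. The list was not raised in the other libraries, with 1.14 CPM in the day 28 library and 1.55 CPM in the day 2 library, and 3 of its 7 genes were at 0 in each. Muscle and squamous genes thus stood together in 2 of the 4 libraries. The source of these RNAs was not tested.

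The day 2 library differed again. Prg4, the lubricating proteoglycan of joint and serosal surfaces, stood at 178 CPM there, against at most 38.8 CPM in the other day 2 libraries, and the tendon and synovium list summed to 196 CPM, against 15.4 to 61.4 CPM, with 1 of its 7 genes above every other library. In the day 5 female library 6 of the 7 were above, at a sum of 124.9 CPM, and in the day 5 male library 1, at 58.3 CPM, against at most 48.6 CPM in the other day 5 libraries. None were above in the day 28 library, at 27.03 CPM. The mesothelium list, the lining of the lung surface and chest cavity, summed to 110 CPM in the day 2 library, under the lowest other library of day 2 at 128.4 CPM. In the day 28 library it summed to 155.7 CPM, also under the lowest other library of day 28 at 158.6 CPM. In the day 5 male library it summed to 403 CPM, inside the range of 73.2 to 429 CPM, though 3 of the 4 genes were above every other library. Lists of smooth muscle, cartilage, brown and white fat, thymocyte, thyroid and nerve genes held no gene above every other library in any of the 4. Of 5 bone genes 1 was above in each library but the day 2 library, at a list sum of at most 1.20 CPM, and of 6 hepatocyte genes 2 were above in the day 5 female library (a list sum of 52.04 CPM, against at most 49.9 CPM). The part of these lists in the results that follow was not tested.

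**Figure D3:**
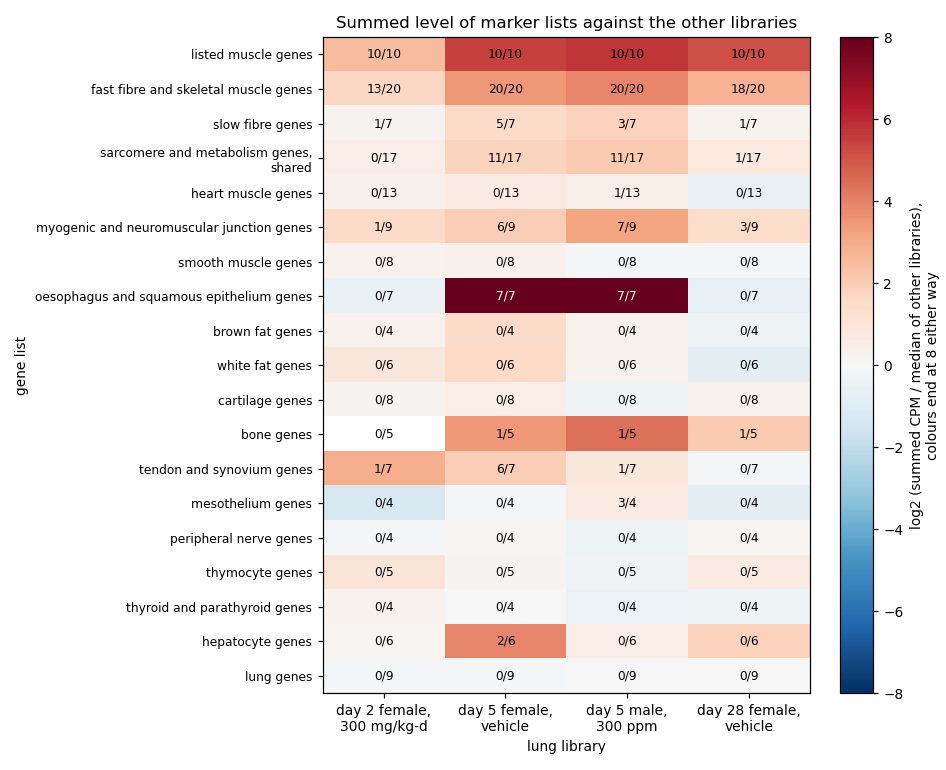
Log2 of each marker list's summed CPM over the median of the other libraries of the same day (colour), in the 4 libraries. The printed fractions give how many genes of the list exceed all other libraries. Fast fibre genes are raised in all 4, and oesophagus and squamous genes in both day 5 libraries; the blank cell has a median of 0.

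At day 28 in females, 6 of the 10 genes passed the test as lower in dosed lungs than in vehicle lungs, at all 4 doses for 5 of them. Every dose group was set against its own vehicle group with edgeR's quasi-likelihood test over 15646 genes, with Benjamini-Hochberg adjustment and a threshold of 0.05. Myh4 and Pvalb did not pass the low-count filter there, which left 8 of the 10 tested. At 150 ppm 5 of them passed, of 5 calls among all genes (0.032% of genes tested, all lower). At 300 ppm 6 passed, of 24 calls (0.153%, or 0.141% in the lower direction), at 1250 ppm 6, of 13 (0.0831%, or 0.0639% lower), and at 2500 ppm 6, of 19 (0.121%, or 0.0895% lower). DESeq2, which gave no adjusted p for 20 of these 32 values, called 6. By dose these were 1, 2, 2 and 1, of 8, 49, 15 and 70 calls among all genes at 150, 300, 1250 and 2500 ppm. The genes were chosen with these calls known, so the counts describe the list and are not read against that background.

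The values by library show what the calls rest on. Tnnt3 in day 28 females had lowest, median and highest values of 0.673, 1.31 and 170 CPM with vehicle, 1.29, 1.60 and 2.10 CPM at 150 ppm, 1.04, 2.15 and 6.37 CPM at 300 ppm, 1.39, 1.55 and 1.86 CPM at 1250 ppm, and 1.03, 1.61 and 8.17 CPM at 2500 ppm. The groups overlapped, the vehicle median was the lowest of the 5, and the 170 CPM was the day 28 library alone, the next vehicle library being at 1.99 CPM. The fitted log2 fold changes of Tnnt3 were -4.14 (SE 0.81, adjusted p = 0.0245) at 150 ppm, -3.43 (SE 0.76, adjusted p = 0.0463) at 300 ppm, -4.19 (SE 0.81, adjusted p = 0.0149) at 1250 ppm and -3.44 (SE 0.76, adjusted p = 0.0347) at 2500 ppm. Tnni2 had lowest, median and highest values of 0.926, 1.26 and 2.68 CPM at 2500 ppm, against 1.20, 1.65 and 70.1 CPM with vehicle, with fitted changes of -3.44 to -2.88 over the 4 doses. Here the next vehicle library was at 2.29 CPM. Mylpf had fitted changes of -3.31 to -2.82, Atp2a1 of -2.79 to -2.48, Actn3 of -2.73 to -2.45 and Mybpc2, at its 3 called doses, of -1.55 to -1.40. Acta1 and Ckm had fitted changes of -2.56 to -1.69 and -1.95 to -0.98 and passed at no dose. Of the 20 further fast fibre genes 12 passed the low-count filter, and by edgeR 1 of them, Neb, the giant thin-filament protein nebulin, was called, at 1250 ppm (-1.80). At the other doses 0 were called, while 7 at each had an unadjusted p under 0.05.

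Without the day 28 library, none of the 8 genes passed at any dose in females, of 0%, 0.0508%, 0.0445% and 0.0254% of genes called at 150, 300, 1250 and 2500 ppm. Over the 32 values, adjusted p ran from 0.224 to 0.994 by the same edgeR test, and 8 had an unadjusted p under 0.05. The 23 fitted changes that had passed with all libraries lay between -0.44 and 1.10 on the log2 scale without it, and 12 of them turned positive. Ckm then had changes of 1.54, 1.79, 1.29 and 2.26 at 150, 300, 1250 and 2500 ppm, with adjusted p = 0.488, 0.351, 0.396 and 0.225 by edgeR. Among the other day 28 libraries Ckm followed the heart gene Myh6 (r = 0.96). With all libraries 2, 5, 0 and 12 of 12 heart muscle genes had an unadjusted p under 0.05 at these doses by edgeR, and 0 were called. The part of heart tissue in the changes of Ckm was not tested. In males of day 28, 0 of 32 values passed by edgeR without the day 28 library, with 6 at an unadjusted p under 0.05. The lowest adjusted p there was 0.325 by edgeR, and 0, 0, 5 and 2 of all 15736 genes passed at 150, 300, 1250 and 2500 ppm. With all libraries 0 of the 32 values passed by edgeR, with 0 at an unadjusted p under 0.05. DESeq2 then called 0 in males with 21 adjusted p missing, and 0% to 0.032% of all genes passed by edgeR (0.0128% at 2500 ppm).

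**Figure D4:**
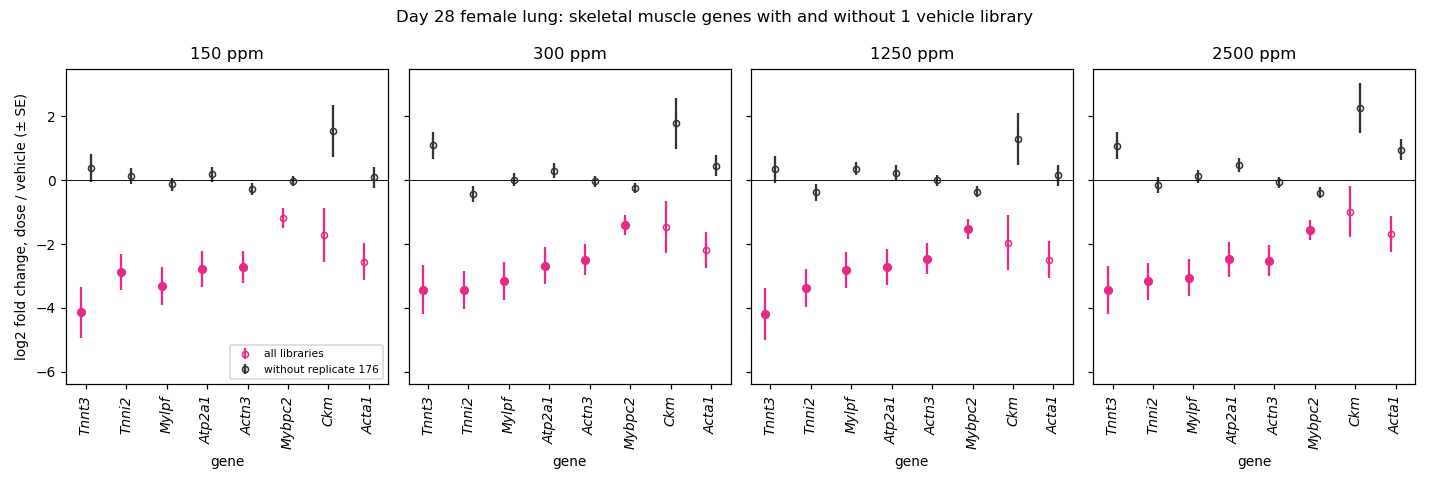
Fitted log2 fold change, dose over vehicle (± SE), of the 8 tested genes in day 28 female lungs, with all libraries and without vehicle replicate 176. Filled points passed the adjusted threshold. With all libraries the points lie between -4.19 (Tnnt3) and -0.98 (Ckm), and without replicate 176 they lie between -0.44 (Tnni2) and 2.26 (Ckm) and none is filled.

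Calls among other genes changed with the same library. At 300 ppm, the contrast that lost most, 24 genes passed with all libraries and 8 without the day 28 library, of which 7 were shared, 17 were lost and 1 was gained. The lost genes held the 6 muscle genes and Mmp12 (-2.59), Fbp1 (-3.01) and Ccl17 (-1.75), genes of macrophages and their signals, whose changes without the library were 0.11, -0.07 and -0.19 on the log2 scale. The day 28 library held 134.7 CPM of Mmp12, against at most 10.4 CPM in the other day 28 libraries. Tmem59, Sar1a, Atp6v1h, Bst2 and Gskip kept nearly the same fitted change without the library (Bst2 -0.39 without it and -0.38 with it). Their adjusted p was 0.0656 to 0.0958 without it and 0.0363 to 0.0491 with it, by edgeR. Tspan3 and Qdpr were also lost, with changes of -0.21 and -0.26 without the library and -0.21 and -0.30 with it. Their adjusted p without it was 0.120 and 0.151 by edgeR. The 7 shared genes were Morf4l1, Lrrc58, Derl1, Aar2, Ficd, Slc7a11 and Oxtr. Over the doses 150, 300, 1250 and 2500 ppm, the counts of all genes without the day 28 library were 0, 8, 7 and 4, and 0, 7, 5 and 4 of these were shared.

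At day 5 the 2 muscle-rich libraries lie on opposite sides of the design, the day 5 male library in a dosed group and the day 5 female library in a vehicle group. In males at 300 ppm, Tnnt3 had lowest, median and highest values of 0.782, 1.47 and 266 CPM, against 0.812, 2.09 and 3.25 CPM with vehicle. The groups overlapped apart from the day 5 male library, and the next library at 300 ppm was at 2.36 CPM. The fitted log2 fold changes of the 9 genes tested ran from 1.37 (Mybpc2) to 4.56 (Tnnt3). None passed (0% of 15675 genes in that contrast), with adjusted p between 0.130 and 0.394 by edgeR, while all 9 had an unadjusted p under 0.05. Over the 4 male doses of day 5 these were also the only 9 of 36 values under 0.05, 0% to 0.0383% of all genes passed, and DESeq2 called 0 with 32 adjusted p missing.

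In day 5 females the vehicle group held the day 5 female library. Acta1 had lowest, median and highest values of 8.51, 19.8 and 677 CPM with vehicle, 13.5, 17.4 and 24.5 CPM at 150 ppm, 10.3, 13.8 and 15.6 CPM at 300 ppm, 9.72, 12.1 and 27.3 CPM at 1250 ppm, and 11.2, 12.6 and 19.5 CPM at 2500 ppm (n = 5). All dose groups overlapped the vehicle group, whose next library was at 24.6 CPM. All 36 fitted changes of the 9 tested genes were negative, from -7.09 to -1.26. Only Myh4 passed, with -7.09 (SE 1.31, adjusted p = 0.0287) at 300 ppm, where 2 genes of all passed (0.0128%), and -6.58 (SE 1.26, adjusted p = 0.0141) at 1250 ppm, where 7 passed (0.0447%). At 150 and 2500 ppm no member passed by edgeR, of 0 and 5 calls (0% and 0.0319%), with 9 and 8 members under an unadjusted p of 0.05. In the lower direction the shares were 0.0128% at 300 ppm and 0.0319% at 1250 ppm. Myh4 had lowest, median and highest values of 0, 0.453 and 105.1 CPM with vehicle, 0, 0.114 and 0.220 CPM at 300 ppm and 0, 0.186 and 0.336 CPM at 1250 ppm. DESeq2 called 0 in these contrasts, with 33 of 36 adjusted p missing. Of the 20 further fast fibre genes 12 were tested at day 5 and edgeR called 0 in females, with 5 to 11 of the 12 under an unadjusted p of 0.05 by dose, and 0 in males at 300 ppm, with 12. Of the 7 squamous genes 2 were tested, and 0 were called in any contrast.

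Leaving out the muscle-rich libraries one at a time gave more calls than leaving out both. Without the day 5 male library, 4, 7, 6 and 5 of the 8 genes then tested passed in females at 150, 300, 1250 and 2500 ppm, all lower than vehicle. Of all 15659 genes 0.0575%, 0.211%, 0.147% and 0.115% passed there in either direction, and 0.0575%, 0.16%, 0.128% and 0.0766% as lower. Tnnt3 at 300 ppm, for example, stood at -4.88 (SE 0.83, adjusted p = 0.00211). Without the day 5 female library, 6 of 8 passed in males at 300 ppm (Acta1, Actn3, Atp2a1, Mylpf, Tnni2 and Tnnt3, all higher), where 0.16% of all genes passed, 0.153% as higher. In females 0 members then passed by edgeR, with 1 of 32 values at an unadjusted p under 0.05. Of all 15654 genes 0, 0, 3 and 3 passed there at 150, 300, 1250 and 2500 ppm. Without both, Myh4 was no longer among the genes tested, so its calls could not be tested again. None of the 8 genes then tested passed in any day 5 contrast by edgeR. There 3 of 32 values in females and 3 of 32 in males had an unadjusted p under 0.05. Of all 15647 genes, 0% to 0.0256% passed in females (0.0192% at 2500 ppm). In males 2 genes passed at 2500 ppm and 0 at the other doses. The fitted changes in females ran from -2.04 to 0.41, with 17 of 32 below 0. The 10 groups of a day share 1 estimate of each gene's spread, into which every library enters. In males at 1250 ppm, a contrast to which neither library belongs, 0 genes passed without both and 6 with all libraries (0.0383%). These 6 lay at the threshold, with an adjusted p of 0.0496 with all libraries and of 0.0506 to 0.0519 without both, by edgeR. Their fitted changes hardly moved, such as H3f3a at -0.88 in both fits. Without the day 5 female library alone 6 genes passed there, and without the day 5 male library alone 7.

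At day 2, the day 2 library belongs to the females at 300 mg/kg-d, the lung contrast with the most calls. By edgeR, 4 of the 9 members tested passed as higher, of 1330 calls among 15240 genes (8.73%), of which 555 were higher (3.64%). DESeq2 called 3 members there as higher, of 1569 calls among all genes, 688 of them higher. Elsewhere in day 2 females no member passed by edgeR, with 1 value under an unadjusted p of 0.05, while the share of all genes that passed was 0%, 0.00656% and 5.41% at the doses of 50, 100 and 200 mg/kg-d. A fit of the 200 mg/kg-d and vehicle females alone called 0.068%. Tnnt3 had lowest, median and highest values of 0.735, 1.45 and 34.3 CPM at 300 mg/kg-d, against 0.461, 1.20 and 2.29 CPM with vehicle. Only the day 2 library lay above the vehicle range, since the next dosed library was at 2.08 CPM. Tnnt3 had a fitted change of 2.35 (SE 0.61, adjusted p = 0.00923), Tnni2 of 1.91 (SE 0.53, adjusted p = 0.0152), Mylpf of 1.65 (SE 0.44, adjusted p = 0.0126) and Atp2a1 of 0.94 (SE 0.31, adjusted p = 0.0488). Of the 20 further fast fibre genes 14 were tested, and Myh1, Myh2 and Neb passed as higher and 0 as lower there, with changes of 5.05, 1.94 and 1.33. Of the tendon and synovium list Prg4 passed, with 5.39.

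Without the day 2 library, a fit chosen after seeing the data, the changes of these members were 0.07 for Tnnt3, -0.22 for Tnni2, -0.28 for Mylpf and 0.01 for Atp2a1, and none passed. Myh1, Myh2 and Neb did not pass either, with changes of 0.13, 0.59 and 0.14. Prg4 still passed in that fit, with 3.24 (SE 1.10, adjusted p = 0.0479 by edgeR). Without the day 2 library 1650 genes passed (10.8%), against 1330 with it, and 1250 were shared, 80 were lost and 400 were gained. In day 2 males 0 of 36 values passed by edgeR either without that library, with 3 at an unadjusted p under 0.05 and a lowest adjusted p of 0.155, or with all libraries, with 0. With all libraries DESeq2 called 0 there with 4 adjusted p missing, and 0% to 0.21% of all genes passed by edgeR (0.00656% at 100 mg/kg-d). Without the day 2 library 0, 1, 0 and 34 of all 15280 genes passed in males at 50, 100, 200 and 300 mg/kg-d.

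Mybpc2, the fast myosin-binding protein C, gave a different picture at day 2. It had lowest, median and highest values of 1.28, 2.09 and 9.97 CPM in females at 300 mg/kg-d, against 2.93, 3.46 and 5.13 CPM with vehicle. Apart from the day 2 library, every dosed library, the next being at 2.27 CPM, lay under the lowest vehicle library. With all libraries Mybpc2 did not pass at 300 mg/kg-d (-0.20, SE 0.27, adjusted p = 0.690) or at 200 mg/kg-d (-0.64, SE 0.28, adjusted p = 0.171). Without the day 2 library it passed at both, with -0.99 (SE 0.19, adjusted p = 0.00043) and -0.64 (SE 0.18, adjusted p = 0.0246), where 6.48% of genes passed as lower at 300 mg/kg-d and 2.46% at 200 mg/kg-d (5.58% in either direction). That fit was chosen after seeing the data. In males at 300 mg/kg-d the lowest, median and highest values were 1.25, 1.40 and 1.85 CPM, against 1.53, 1.94 and 3.22 CPM with vehicle, with an adjusted p of 0.354 by edgeR.

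In the libraries other than the 4, the 10 genes did not move as 1 group. Myh6, the alpha myosin heavy chain of heart muscle, chosen as a measure of heart tissue after the values were seen, ranged from 10.7 to 679 CPM at day 2, 9.39 to 603 CPM at day 5 and 9.07 to 568 CPM at day 28. Correlations used log2(CPM + 0.5) over 59, 57 and 59 libraries, with 100000 permutations and adjustment over 27 relations (9 genes on 3 days, without Pvalb, which was mostly at 0). Libraries of all doses and both sexes are pooled within a day and share its preparation. Ckm followed Myh6 most closely, with r = 0.93, 0.98 and 0.96 and rho = 0.88, 0.95 and 0.93 at days 2, 5 and 28 (adjusted permutation p for rho = 1.93e-05 each, which comes from the smallest p that the permutations can give). Without the 2 libraries farthest from the median of Myh6, r was 0.89, 0.97 and 0.95. Myh4 had r = 0.71, 0.73 and 0.80 and rho = 0.64, 0.80 and 0.81, and r = 0.66, 0.71 and 0.78 without the 2 farthest, at levels of at most 1.47 CPM. Atp2a1 had r = 0.53, 0.72 and 0.67 and rho = 0.61, 0.76 and 0.75, and r = 0.41, 0.70 and 0.65 without the 2 farthest. Acta1 had r = 0.52, 0.59 and 0.78 and rho = 0.61, 0.66 and 0.84, and Tnnt3 r = 0.54, 0.53 and 0.65 and rho = 0.59, 0.50 and 0.67. Without the 2 farthest, r was 0.49, 0.64 and 0.80 for Acta1 and 0.58, 0.51 and 0.64 for Tnnt3. For Myh4, Atp2a1, Acta1 and Tnnt3 the adjusted permutation p for rho was at most 0.000198.

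Actn3, Mylpf, Tnni2 and Mybpc2 had r between -0.25 and 0.24 with Myh6 over the 3 days, and none passed after adjustment (lowest adjusted permutation p = 0.0848, for rho of Mybpc2 at day 5). In the libraries other than the 4, Ckm spanned 0.165 to 28.2 CPM at day 28, while Mylpf spanned 1.06 to 2.92 CPM.

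**Figure D5:**
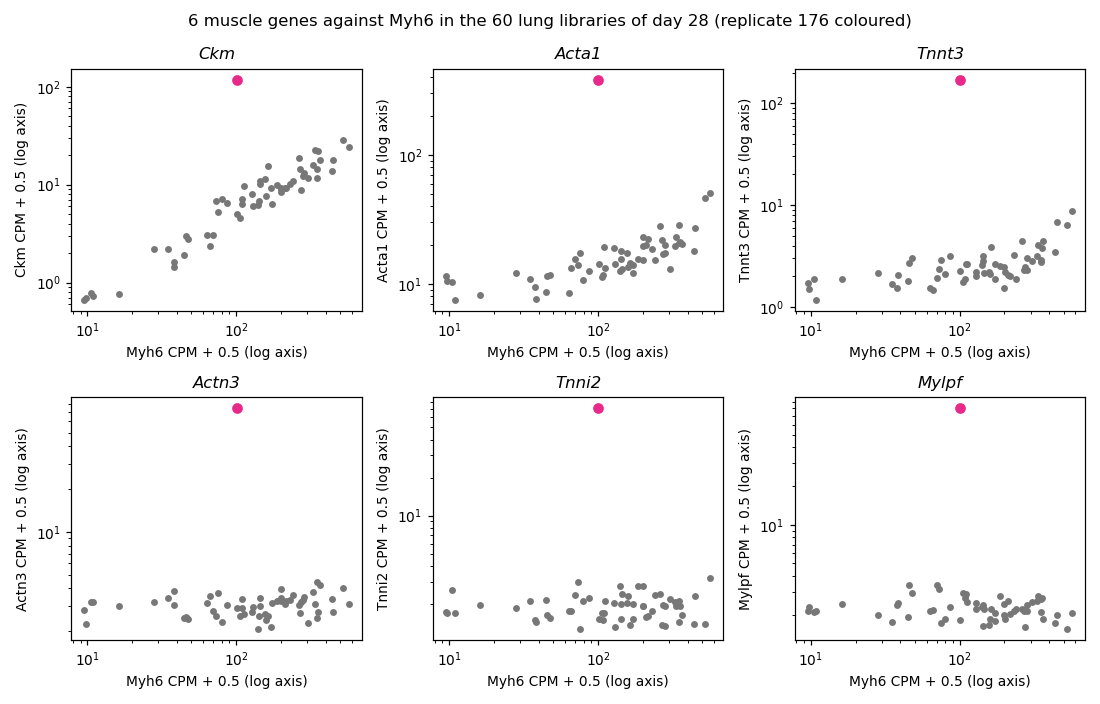
CPM + 0.5 of 6 genes against that of Myh6 (both log axes) in the 60 lung libraries of day 28, with replicate 176 coloured. Ckm, Acta1 and Tnnt3 go up with Myh6 among the grey libraries and Actn3, Tnni2 and Mylpf do not, while replicate 176 lies above the rest for all 6 at 100 CPM of Myh6.

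Across all lung libraries, the genes whose log2 level was most like that of the summed 10 genes, among 15161 genes that passed the filter in all 3 tables, were Myl1 (mean r over the days 0.88), Apobec2 and Eno3 (0.82 each), Klhl31, Hspb6, Rpl3l, Xirp2, Klhl41, Pygm, Pfkm, Casq1 and Lmod3 (0.81 to 0.77). They are genes of muscle structure and metabolism, and these r describe 60, 59 and 60 libraries that share their days and their muscle-rich members. In the libraries other than the 4, r with the sum was at least 0.68 for each of these genes but Casq1. Hspb6, for example, had 0.86, 0.90 and 0.95, against 0.82, 0.86 and 0.73 over all libraries of days 2, 5 and 28. Casq1, the calsequestrin of fast fibres, had 0.46, 0.12 and 0.27 without the 4, against 0.67, 0.89 and 0.76 over all libraries. Without the 4, Acta1, Ckm and Atp2a1 had the highest medians of the 10 genes (19.6, 15.9 and 11.4 CPM at day 2). Each of them also followed Myh6, as given above. The part of heart tissue in these r was not tested.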

How the data were processed

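RNA was sequenced from lung and liver of mice given 4-MEI, and the lung libraries are described here. The library kit was Illumina TruSeq Stranded mRNA HT, per the labels' protocols. The submitters' processing notes name Trimmomatic, Bowtie2, SAMtools, HTSeq and mm10; their versions, the annotation and the strand setting are not stated in what was used here. The authors deposited raw counts per gene symbol, without normalization, in 3 lung tables. There, 1 unnamed column, equal to the sum of the day 28 libraries, was not used. Antisense genes overlap Atp2a1, Tnnt3, Ckm, Acta1 and Mybpc2, and myosin and actin genes have near-identical copies, so their counts are uncertain to that extent.

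The tests came from edgeR 4.0.16 under R 4.3.3 (filterByExpr, TMM, robust quasi-likelihood fit with a mean per group over the 10 groups of a day), each dose against vehicle, with Benjamini-Hochberg adjustment over all genes and a threshold of 0.05. Alternatives were DESeq2 1.42.0, RLE size factors, no filter, a non-robust fit, only the groups compared, a covariate (log2 summed CPM of the 10 genes, so each member is part of its own covariate), and fits without muscle-rich libraries. The edgeR script was tested on simulated data. Lengths are exon unions of GENCODE M21. The precision of low genes is set by 7253910 to 21473135 counts per library.

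The members, lists and tests were chosen with earlier results of these data known. Named genes are the members, the 12 genes most alike in pattern, up to 4 genes of each list, and the lost and kept genes of the contrast that lost most calls without the muscle-rich libraries; others are said to be chosen after their values were seen.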

Additional observations from a re-analysis of the deposited data

Results flagged for a closer look

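The highest and the lowest library of each group were set against the rest of the group by Dixon's criterion. Chance meets it at either end in about 1 of 20 groups if values are normally distributed, which was not checked for these CPM. Only highest libraries stood out. For the sum of the 10 genes all 30 lung groups were examined, and 8 stood out. For single genes only the groups with the 4 libraries already known to be high were examined, so that 47 of 70 comparisons stood out in all.

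In the day 5 male group at 300 ppm, 1 library stood apart in all 10 genes, at 1007 CPM of Acta1, 265.5 CPM of Tnnt3, 233.2 CPM of Ckm, 195.1 CPM of Atp2a1 and 131.5 CPM of Tnni2. It held 123.04 CPM of Mylpf, 66.3 CPM of Actn3, 51.4 CPM of Mybpc2, 12.4 CPM of Myh4 and 3.87 CPM of Pvalb, and its sum was 2090 CPM. Among the day 5 female vehicle libraries, 1 stood apart in all 10 genes, at 677 CPM of Acta1, 217 CPM of Tnnt3, 209.9 CPM of Atp2a1, 188 CPM of Ckm and 105.1 CPM of Myh4. It held 102.6 CPM of Tnni2, 100.996 CPM of Mylpf, 43.8 CPM of Mybpc2, 36.4 CPM of Actn3 and 34.7 CPM of Pvalb, and its sum was 1716 CPM.

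Among the day 28 female vehicle libraries, replicate 176 stood apart in all 10 genes, at 383 CPM of Acta1, 261.8 CPM of Atp2a1, 232.5 CPM of Myh4, 170.1 CPM of Tnnt3 and 117.8 CPM of Ckm. It held 92.7 CPM of Pvalb, 79.5 CPM of Mylpf, 73.5 CPM of Actn3, 70.1 CPM of Tnni2 and 38.1 CPM of Mybpc2, and its sum was 1519 CPM. In the day 2 female group at 300 mg/kg-d, 1 library stood apart in 9 of the 10 genes, Myh4 being the exception. It held 90.3 CPM of Acta1, 71.7 CPM of Atp2a1, 62.6 CPM of Ckm, 34.3 CPM of Tnnt3, 19.2 CPM of Mylpf and 18.7 CPM of Tnni2. Mybpc2 stood at 9.97 CPM, Pvalb at 9.78 CPM and Actn3 at 9.13 CPM, and the sum was 327 CPM.

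The summed level also stood apart in 4 groups at far lower values. These were 103.4 CPM in a day 28 female library at 2500 ppm, 74.9 CPM in a day 28 male library at 150 ppm, 66.04 CPM in a day 28 male library at 300 ppm and 95.2 CPM in a day 2 male vehicle library.

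Outside the lung, 1 day 2 liver library (male, 100 mg/kg-d) held a summed level of 17.5 CPM, against at most 3.15 CPM in the other day 2 liver libraries. There Ckm stood at 3.12 CPM, against at most 0.101 CPM in the others, and Myh4 at 2.15 CPM, against at most 0.100 CPM. The lung library of the same number held 72.6 CPM, inside the range of day 2 lungs.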

How the results depend on the processing

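No paired analysis was possible because the dose and vehicle groups of the lung share no replicate numbers in their titles. Where members or genes are counted, all libraries gave 4, 2 and 23 calls of members over the dose contrasts of days 2, 5 and 28 by edgeR. RLE size factors and the non-robust fit left these counts within 1.5 times, as did no filter on low counts. With a covariate, the log2 summed CPM of the 10 genes, of which each member is itself a part, they were 2, 0 and 1, with only the groups compared 0, 0 and 0, and without the muscle-rich libraries 0 at day 5 and 0 at day 28 (day 2 had none over 10 times the median; at a threshold of 5 times it had 1). Myh4, the member called at day 5 with all libraries, was not tested at day 5 without the muscle-rich libraries. DESeq2 called 0 at day 5 and 6 at day 28, with most adjusted p missing there. Leaving out 1 library gave 2 at day 2 without the day 2 library (added after seeing the data), 2 to 22 at day 5, highest without the day 5 male library, and 0 at day 28 without the day 28 library. For all genes in day 5 females, the counts at 150, 300, 1250 and 2500 ppm were 0, 2, 7 and 5 with all libraries. DESeq2 gave 2, 29, 34 and 13, only the groups compared 198 at 300, 0 at 1250 and 2 at 2500 ppm, the covariate 0 at 300 and 12 at 2500 ppm, no filter 3 at 2500 ppm, and the fit without both libraries 0 at 300, 4 at 1250 and 3 at 2500 ppm. Leaving out 1 library gave 0 to 9, 0 to 33, 3 to 23 and 1 to 18. In day 5 males at 300 ppm the count of 0 was 16 with no filter, 3 in the non-robust fit, 1 with only the groups compared, 1 by DESeq2 and 0 to 25 with 1 library left out. In day 5 males at 1250 ppm the count of 6 was 0 with no filter, 12 with the covariate, 0 without both, 2 with only the groups compared, 53 by DESeq2 and 0 to 10 with 1 library left out. In day 28 females the counts at 150, 300, 1250 and 2500 ppm were 5, 24, 13 and 19. The covariate gave 2, 37, 5 and 78, the fit without the day 28 library 0, 8, 7 and 4, and only the groups compared 0, 0, 1 and 0. No filter gave 14, 21 and 29 at 150, 1250 and 2500 ppm, and DESeq2 8, 49 and 70 at 150, 300 and 2500 ppm. In day 2 females at 300 mg/kg-d only the groups compared gave 2729, against 1330. Over the remaining contrasts the shares of genes called are given. In day 2 females at 50, 100 and 200 mg/kg-d the shares of 0%, 0.00656% and 5.41% were 0.0136%, 0.72% and 0.068% with only the groups compared. At 50 and 100 mg/kg-d they were 0.0583% and 0.141% with no filter, 0.00656% and 0.0131% in the non-robust fit and 0.0131% and 0.0656% by DESeq2, and with the covariate 0.0262% at 100 mg/kg-d. In day 2 males at 50, 100, 200 and 300 mg/kg-d the shares of 0%, 0.00656%, 0% and 0.21% were 0.00656%, 0.0131%, 0.151% and 0.912% by DESeq2, and 0.116%, 0.794% and 0% at the upper 3 doses with only the groups compared. In day 5 males DESeq2 gave 0.0447% at 150 and at 2500 ppm, against 0%. At 2500 ppm the covariate gave 0.0128%, the fit without both libraries 0.0128% and leaving out 1 library 0% to 0.00634%. In day 28 males the shares of 0.032% and 0.0128% at 1250 and 2500 ppm were 0% and 0.0866% with only the groups compared and 0.294% and 0.0447% by DESeq2, which gave 0.00639%, against 0%, at 300 ppm. The cause of these changes was not tested. Fitted changes that turned sign without the day 28 library were, at 150, 300, 1250 and 2500 ppm, 0.18, 0.30, 0.24 and 0.48 for Atp2a1 and 0.38, 1.10, 0.34 and 1.08 for Tnnt3. The same held for Mylpf at 300, 1250 and 2500 ppm, with 0.020, 0.36 and 0.12, and for Tnni2 at 150 ppm, with 0.13. With the covariate Tnnt3 turned to 0.075, 0.43 and 0.085 at 150, 300 and 1250 ppm, and without the day 2 library Mylpf turned to -0.28 and Tnni2 to -0.22. Of 31 fitted changes of named members, 31 kept direction and side of the threshold under RLE factors, 31 in the non-robust fit and 30 with no filter. In the non-robust fit Acta1 also passed at 1250 ppm in day 28 females (adjusted p = 0.0479, edgeR). Counts of 0 to a few reads limit Myh4 and Pvalb outside the 4 libraries. Groups of 5 or 6 libraries share 1 estimate of spread per gene, and counting error alone understates the spread between libraries.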

Other observations

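Further genes stood far above the other libraries in each of the 4, and those named were chosen after their values were seen. In the day 28 library Chil3, a chitinase-like protein of activated macrophages, stood at 3075 CPM, against at most 734 CPM in the other day 28 libraries. Ccl24, an attractant of eosinophils, stood at 18.4 CPM there, against at most 3.65 CPM, and Rnase2a, an eosinophil ribonuclease, at 51.9 CPM, against at most 3.75 CPM. In the day 2 library Alox15, a lipoxygenase of resident macrophages of body cavities, stood at 133.9 CPM, against at most 34.2 CPM in the other day 2 libraries. Cd5l, a secreted macrophage protein, stood at 16.5 CPM, against at most 2.79 CPM, and F5, coagulation factor V, at 52.7 CPM, against at most 13.8 CPM. In the day 5 male and female libraries Lor, the loricrin of cornified epithelium, stood at 453 and 271 CPM, against at most 0.716 CPM in the other day 5 libraries. H19, a non-coding RNA high in embryonic and muscle tissue, stood at 238 and 123.2 CPM, against at most 8.36 CPM. In the day 28 library H19 stood at 21.2 CPM, against at most 6.28 CPM in the other day 28 libraries.

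Liver libraries that carry the same numbers as the 4 held summed levels of the 10 genes of only 1.57 CPM for the day 2 library, 2.37 CPM for the day 5 female library, 2.04 CPM for the day 5 male library and 2.52 CPM for the day 28 library.

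Ucp1, the uncoupling protein of brown fat, passed the edgeR test in males of day 5 at 1250 ppm (8.81 on the log2 scale, adjusted p = 0.0496) and in females of day 28 at 2500 ppm (7.17, adjusted p = 0.0305). Without the muscle-rich libraries its changes were 8.81 (adjusted p = 0.0519) and 7.06 (adjusted p = 0.120). The 4 libraries held at most 1.60 CPM of Ucp1, against up to 106.3 CPM elsewhere at day 5 and 110 CPM at day 28.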
